A study of Arabidopsis thaliana with 32 samples.

Results

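Leaves of wild-type Arabidopsis (Col-0) that received no CO2 and a treatment that photoinhibits photosystem I (PSI) at the same time were compared with leaves that received neither. The comparison was defined by the labels alone, with 4 samples in air with 0 ppm CO2 under the PSI photoinhibition treatment (0 ppm CO2 PSI-PI) and 4 samples in air with 400 ppm CO2 in growth light (400 ppm CO2 GL), or 8 of the 32 samples of the series. All plants were grown for 6 to 7 weeks with 8 h days at 100 µmol photons per square metre and second, were placed in an air-tight chamber and were treated for 3 h. The PSI-PI treatment repeated a cycle in which dim light of 660 nm (35 µmol photons, 5 s) and a white pulse (1000 µmol photons, 1 s) alternated 3 times, followed by 30 s of white light at 100 µmol photons. GL plants stayed at 100 µmol photons, and the same leaf position was taken from every plant. The series also holds leaves given each treatment alone, 4 samples of 0 ppm CO2 GL and 4 samples of 400 ppm CO2 PSI-PI, which are used below where the question is how both together differ from each.

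Without CO2 the Calvin-Benson-Bassham (CBB) cycle has no substrate, and the electrons that leave PSI lose their main acceptor. Short pulses of strong light on leaves kept in weak red light overload the acceptor side of PSI and damage its iron-sulfur clusters. Stressed chloroplasts are known to signal to the nucleus through reactive oxygen species, metabolites and oxylipins, among them jasmonic acid (JA) and its precursor OPDA (oxo-phytodienoic acid). The study proposed JA and OPDA as signals of CO2 removal. On removal of CO2 it found most of their target genes higher, in growth light and under the PSI-PI treatment alike. For the PSI-PI treatment itself, set against growth light, it found most of these genes lower or unchanged.

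The values are normalized counts per gene, that is, estimated reads of a gene divided by a factor for the depth of the sample, and they summed to 24408873, 20737796, 20556145 and 23158549 in the 0 ppm CO2 PSI-PI samples and to 21308164, 21849137, 21810460 and 21737843 in the 400 ppm CO2 GL samples. Changes are given as log2 fold changes of the normalized count plus 1 with their standard error (SE), so that 1 stands for a doubling, and a gene was called when the absolute log2 fold change was at least 1 and the adjusted p-value was under 0.05. Of 21469 genes tested, 2543 (11.8%) were called in 0 ppm CO2 PSI-PI leaves against 400 ppm CO2 GL leaves, 1162 (5.41%) higher and 1381 (6.43%) lower. These shares of all genes are the background for the counts of list members below. In 16.7% of all genes every treated leaf lay above every control leaf, and in 16.3% every treated leaf lay below. These shares are the background where groups are said not to overlap. The median log2 fold change of all genes was 0.00285. With p-values left unadjusted, 10065 genes had p under 0.05.

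Replicate 1 of 0 ppm CO2 PSI-PI stood apart. Its genes deviated from the mean of its group with an SD of 0.628 on the log2 scale, the largest of all 32 samples, against 0.25 to 0.387 in the other 3 leaves of the group and 0.179 to 0.247 in the 400 ppm CO2 GL leaves. The median SD of a gene between replicates was 0.319 in 0 ppm CO2 PSI-PI and 0.135 in 400 ppm CO2 GL. Replicate 1 was the highest of the 4 leaves for 681 of the 1162 genes that rose and the lowest for 750 of the 1381 that fell. Without it 972 genes (4.53%) were called higher and 1176 (5.48%) lower, and 1818 genes were called both with and without it. The results that rest on this leaf are therefore given with and without it.

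The tissue label was compared with marker genes. RBCS1A, RCA and the 2 LHCB genes that mark mesophyll summed to 365356 to 696637 normalized counts in 0 ppm CO2 PSI-PI leaves, against 603786 to 727124 in 400 ppm CO2 GL leaves. The 2 LHCB genes, LHCB1.2 and LHCB2.1, were called lower and are also among the antenna genes below. RBCS1A (lower) and RCA (higher) were not called. The 5 guard cell markers summed to 885 to 1376 in 0 ppm CO2 PSI-PI leaves and 1351 to 1665 in 400 ppm CO2 GL leaves. None of them was called, but 3 were lower by less than 2-fold at an adjusted p under 0.05. Of the root markers only SCR was measured, with 191 to 539 normalized counts, against 519 to 637. SCR was not called, but it was lower by less than 2-fold at an adjusted p under 0.05. Of the seed markers only SESA1 was measured, at 0 in all treated leaves, against 0.95 to 5.55, and the 3 flower markers summed to at most 21.8 in 0 ppm CO2 PSI-PI leaves and 12.8 in 400 ppm CO2 GL leaves. The part of these shifts in the results was not tested. In whole leaves a smaller share of a cell type and less RNA per cell cannot be told apart.

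**Figure D1:**
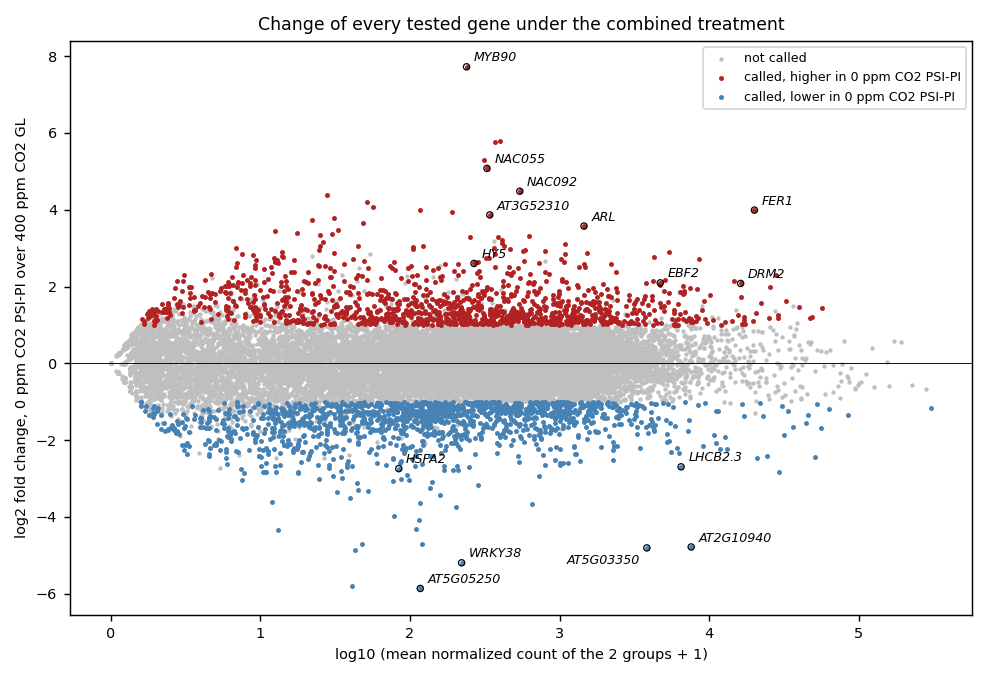
Log2 fold change of each of the 21469 genes tested, 0 ppm CO2 PSI-PI over 400 ppm CO2 GL, against the log10 of its mean normalized count plus 1 over the 2 groups. Red and blue points are the 1162 genes called higher and the 1381 called lower, grey points were not called, and circled genes are named in the text.

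The largest rise among the genes that met the naming rule was that of MYB90, a MYB factor that switches on anthocyanin synthesis. It had 1269.5, 420.4, 167 and 41.3 normalized counts in 0 ppm CO2 PSI-PI leaves, against 0, 0.917, 0 and 0 in 400 ppm CO2 GL leaves. The naming rule required that the 2 groups did not overlap in any of the largest rises and falls, so their separation is no result. The 4 treated leaves of MYB90 spanned a wide range. Its fitted log2 fold change of 7.72 depends on the added count of 1, since the controls were at or near 0. GSTF12, which carries anthocyanins toward the vacuole, rose by 5.78 ± 1.41 (SE) with 2619.9, 235, 51.7 and 30.0 normalized counts, against 0, 9.18, 0.917 and 4.77.

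A pair of NAC factors linked to leaf senescence rose in all 4 leaves alike. AT3G15500 (NAC055, listed as NAC3) had 408, 556, 827 and 743 normalized counts in 0 ppm CO2 PSI-PI leaves and 17.8, 19.3, 10.1 and 24.7 in 400 ppm CO2 GL leaves, with a log2 fold change of 5.08 ± 0.49 (SE) and an adjusted p = 1.63e-08. NAC6 (AT5G39610, also known as ORE1 or NAC092), which promotes leaf ageing, had 701, 1012, 1342 and 1081, against 34.7, 64.2, 45.8 and 37.1, with a log2 fold change of 4.48 ± 0.43 (SE) and an adjusted p = 1.62e-08. In both genes replicate 1 was the lowest of the treated leaves. The genes for the kinases MAPKKK19 and MKK7 rose by 3.79 and 3.37, and replicate 1 was the lowest treated leaf in these as well, at 17.3, 66.1, 70.7 and 62.0 normalized counts of MKK7 against 8.45, 1.84, 2.75 and 3.82.

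ARL (ARGOS-LIKE), which promotes organ growth through cell expansion, was among the tightest of the large rises. It had 2474, 2774, 2953 and 2487 normalized counts in 0 ppm CO2 PSI-PI leaves and 308, 284, 180.4 and 156 in 400 ppm CO2 GL leaves, a log2 fold change of 3.57 ± 0.22 (SE) with an adjusted p = 1.57e-11. AT3G52310, which encodes an ABC transporter of the G family, behaved alike with 679, 730.1, 586 and 552 normalized counts, against 47.7, 42.2, 50.3 and 32.2, and a log2 fold change of 3.86 ± 0.33 (SE). MES9, a methyl esterase, rose by 3.95 ± 0.88 (SE), but its 4 treated leaves were spread over 875, 115, 424 and 42.4 normalized counts, against 4.69, 22.9, 14.7 and 14.3. MYB112 rose by 3.46, and AT2G22880, which encodes a protein with a VQ motif, by 4.39. AT5G42825 and AT3G20340, without a name in the files, rose by 5.29 and 4.06.

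The largest fall was that of AT5G05250, which the study listed with iron genes, and it is described with them below. WRKY38 and NIMIN1 of the salicylic acid branch of defence were also among the 15 largest falls. WRKY38, a WRKY factor induced by salicylic acid, had 2.30, 5.15, 77.3 and 9.28 normalized counts in 0 ppm CO2 PSI-PI leaves, against 373, 361, 429.6 and 503 in 400 ppm CO2 GL leaves (log2 fold change -5.20 ± 0.76 (SE), adjusted p = 6.88e-06). NIMIN1, whose protein binds the salicylic acid receptor NPR1, had 22.1, 6.28, 168 and 14.6, against 419, 319, 304 and 357 (log2 fold change -3.75 ± 0.70 (SE)). In both, the third leaf stayed higher than the other treated leaves and, as the naming rule required, below every control leaf. The same leaf stood out in AT5G03350, which encodes a lectin, with 124, 80.6, 2425 and 145 normalized counts, against 5702, 6274, 7179 and 8635.

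The other large falls included genes of the cell wall and the cuticle. EXPB1, a beta-expansin that loosens walls, had 1.15, 4.13, 3.44 and 2.07 normalized counts, against 94.7, 79.1, 85.7 and 106 in 400 ppm CO2 GL leaves, and fell by 4.71 on the log2 scale (adjusted p = 4.82e-08). XTH25, a xyloglucan-modifying enzyme, and CER1, which makes wax alkanes, had log2 fold changes of -4.08 and -3.97. AT2G10940, annotated as a lipid-transfer protein, was highly expressed in the controls. It had 198, 654, 152 and 3058 normalized counts in 0 ppm CO2 PSI-PI leaves, against 16404, 8831, 16409 and 14772 in 400 ppm CO2 GL leaves. The treated leaves differed by more than 10-fold among themselves. AT4G18970, a lipase of the GDSL family, had a log2 fold change of -4.32, BZIP34 of -3.64, NAC004 of -3.50 and AT3G23450 of -3.65. The kinase gene AT3G57700 was listed at 0, 0, 0 and 3.12 normalized counts, against 92.5, 69.2, 62.6 and 94.0, which allows no firm ratio.

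Genes of anthocyanin synthesis were called higher, but their level was set largely by replicate 1. Of 19 enzymes of the phenylpropanoid and flavonoid pathway 8 rose and none fell (background 5.41% higher and 6.43% lower). Their median log2 fold change was 0.95. Of the 20 flavonoid genes the study listed 16 rose, which is no independent evidence because that list was chosen on these samples. Some of the 19 enzymes, DFR and GSTF12 among them, are on that list too. DFR, the first enzyme committed to anthocyanins, had 2797, 332, 48.0 and 2.06 normalized counts in 0 ppm CO2 PSI-PI leaves and 0, 2.75, 0 and 2.85 in 400 ppm CO2 GL leaves. CHS, the entry enzyme of the flavonoid pathway, had 3620.1, 472, 137 and 65.9, against 17.8, 60.5, 79.7 and 51.3. In both genes replicate 1 was far above the other treated leaves, and replicate 4 was within the range of the controls.

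Without replicate 1 only 2 of the 19 enzymes (DFR and GSTF12) were called, at a background of 4.53% higher and 5.48% lower. Of the study's 20 flavonoid genes, chosen on these samples, 8 were called without that leaf. The log2 fold change of CHS was then 1.80 (adjusted p = 0.2), against 2.92 (adjusted p = 0.035) with all 4 leaves. LDOX, which forms anthocyanidins, had 1.96 (adjusted p = 0.19), against 3.30, and UF3GT, which adds a sugar to anthocyanins, 2.54 (adjusted p = 0.18), against 3.98. UGT78D2, a flavonoid glucosyltransferase, had 0.99, against 1.16. In a fit of the 8 leaves alone CHS, LDOX and UF3GT also lost their calls (adjusted p = 0.0867, 0.103 and 0.0937), as they did without control replicate 1 (0.106, 0.0645 and 0.054).

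The 16 regulators of the pathway showed the same dependence. MYB90, TT8, MYB113 and MYB114 rose and LBD39, a repressor of anthocyanin genes under ample nitrate, fell with all 4 leaves. Without replicate 1 the calls of TT8, MYB113, MYB114 and LBD39 were lost, with log2 fold changes of 1.43, 1.51, 1.63 and -1.28, while MYB90 kept its call (6.94). The calls of MYB113, MYB114 and TT8 were also lost without single control leaves, at adjusted p-values of up to 0.114, 0.0635 and 0.054. MYB75 (PAP1), the best known activator, had 4132, 456, 143 and 166 normalized counts, against 43.2, 227, 209.8 and 112, and was not called (log2 fold change 1.89 ± 1.03 (SE), adjusted p = 0.15). In MYB75 the first 2 treated leaves were above all controls and the other 2 lay within them. The repressor MYBL2 was higher in each treated leaf, with 6152, 6535, 7146 and 9106 normalized counts, against 4219, 3713, 3706 and 3088, but its log2 fold change of 0.97 missed the 2-fold limit. Without replicate 1 MYBL2 was called higher (1.04) and EGL3, a partner of the MYB activators, lower (-1.68, against -1.24 and an adjusted p = 0.1 with all leaves). MYB2, MYB7 and MYB108 of the study's list rose with and without replicate 1, by 2.27, 1.57 and 2.38 with all leaves, and NAM by 2.13.

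**Figure D2:**
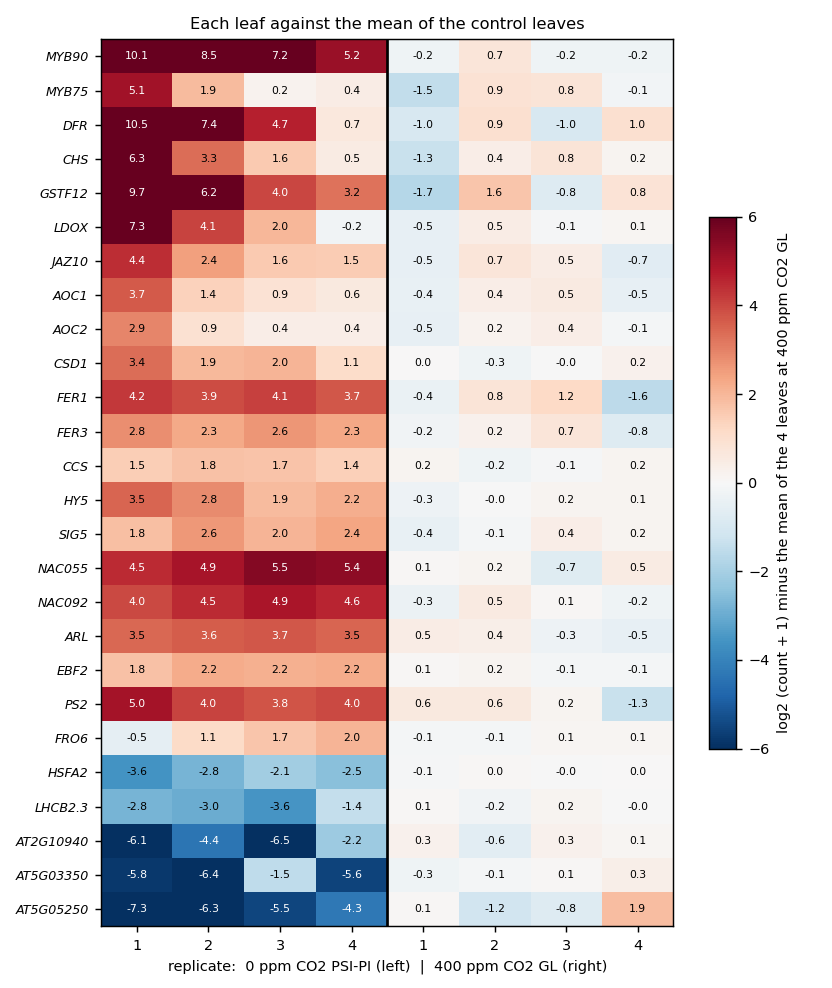
Log2 of the normalized count plus 1 in each of the 8 leaves minus the mean over the 4 leaves of 400 ppm CO2 GL, for 26 genes. Columns 1 to 4 on the left are 0 ppm CO2 PSI-PI and those on the right 400 ppm CO2 GL, and colours end at 6 in either direction. In DFR the treated leaves had 10.49, 7.42, 4.65 and 0.65, whereas in ARL all 4 lay between 3.47 and 3.72.

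Oxylipin genes followed replicate 1 as well. JA is made from linolenic acid through OPDA, and JAZ proteins repress its target genes. Of 14 genes of JA biosynthesis AOC1 and AOC2, the allene oxide cyclases that form OPDA, were called higher. AOC1 had 41174, 8275, 5907 and 4844 normalized counts in 0 ppm CO2 PSI-PI leaves, against 2347, 4273, 4635 and 2259.9 in 400 ppm CO2 GL leaves. Without replicate 1 none of the 14 was called, and the log2 fold change of AOC1 was 0.95. Of 13 JAZ genes 4 rose, against 5.41% of all genes. JAZ6 and JAZ9 also rose without replicate 1 (log2 fold changes 1.46 and 1.49), whereas JAZ8 and JAZ10 lost their calls. JAZ6 had 6377, 4491, 3853 and 4554 normalized counts, against 1087, 1631, 1638 and 2010.3. JAZ10 had 1.84 (adjusted p = 0.11) without that leaf, against 2.49 (adjusted p = 0.023) with it, and lost its call without control replicates 1 or 4 too (0.0576 and 0.0653), as AOC1 (0.0832 and 0.0891) and AOC2 (0.102 and 0.0718) did.

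Among 68 JA-responsive genes of the study 13 rose and 1 fell, with a median log2 fold change of 0.833. Without replicate 1 the count was 12 and none at a median of 0.057. Over all genes 5.41% were called higher and 6.43% lower, against 4.53% and 5.48% without that leaf. Among 62 OPDA-responsive genes 18 rose and 1 fell, with a median of 1.03, against 10 and 2 and a median of 0.478 without that leaf. ERF1A (ERF-1) and ZAT10, transcription factors that respond to many stresses within minutes, were members that rose either way. ZAT10 had 911, 1632, 1439 and 1567 normalized counts, against 323, 487, 423 and 369, and ERF1A 1213, 597, 1059 and 696, against 175, 187, 158 and 221. EXL4 of the OPDA list rose by 2.52 ± 0.33 (SE) with 2598, 2237, 2323 and 2869.7 normalized counts, against 603, 566, 387 and 270.0, and its treated leaves were close to each other. LAC8, a laccase, fell by 2.61 on the log2 scale. The sum of the 68 JA-responsive genes lay between 145389 and 1417670 normalized counts in 0 ppm CO2 PSI-PI leaves, against 86854 to 228402 in 400 ppm CO2 GL leaves.

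**Figure D3:**
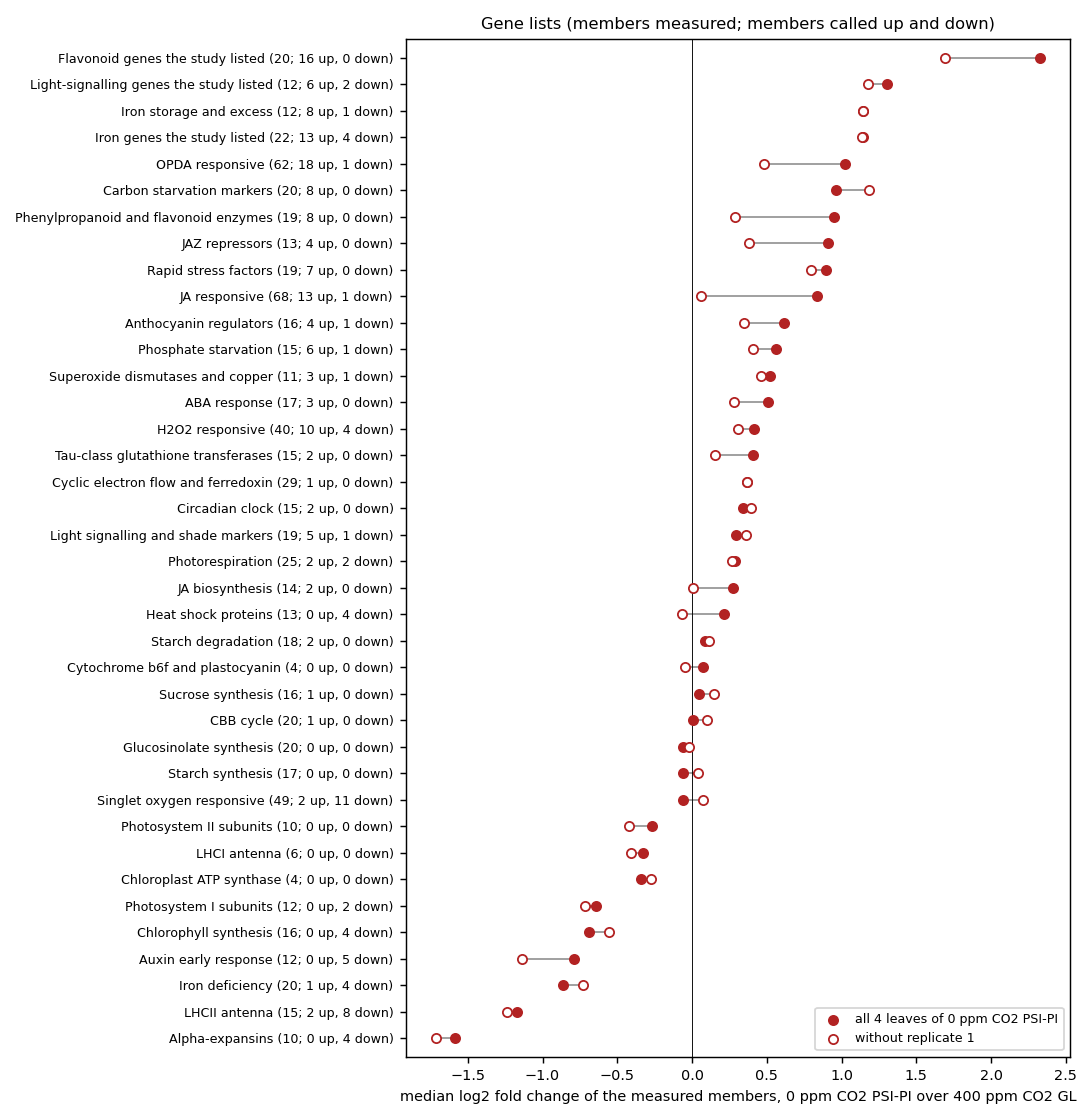
Median log2 fold change of the measured members of each gene list, 0 ppm CO2 PSI-PI over 400 ppm CO2 GL, with all 4 treated leaves (filled) and without replicate 1 (open). Numbers beside each name give the members measured and those called up and down. The median of the JA-responsive list is 0.833 with all leaves and 0.057 without replicate 1, whereas that of iron storage is 1.14 in both.

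The copper/zinc superoxide dismutases CSD1 and CSD2 rose while the iron form FSD1 fell. Plants usually replace one kind by the other according to the copper supply, which the factor SPL7 senses. CSD1, the cytosolic copper/zinc form, had 12749, 4769.5, 5051 and 2679 normalized counts in 0 ppm CO2 PSI-PI leaves and 1287, 1043, 1225 and 1472 in 400 ppm CO2 GL leaves (log2 fold change 2.1 ± 0.34 (SE), adjusted p = 2.45e-05). CSD2, the chloroplast form, had 8398, 6844, 5122 and 5200.0, against 2037, 1307, 1814 and 2415 (log2 fold change 1.76 ± 0.27 (SE)). CCS, the chaperone that loads copper into both, had 1891, 2335, 2219.6 and 1867, against 773, 581, 649 and 764 (log2 fold change 1.59 ± 0.22 (SE)). No treated leaf overlapped with a control leaf in these 3 genes, as in 16.7% of all genes in this direction. All 3 were also called without replicate 1.

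FSD1, the most abundant of the iron superoxide dismutases by normalized counts, fell to 4424, 5169, 7208 and 10092 normalized counts, against 13731, 19096, 17124 and 11760.0 in 400 ppm CO2 GL leaves (log2 fold change -1.25 ± 0.31 (SE), adjusted p = 0.0026). The treated leaf with the most FSD1 was still below the control leaf with the least. FSD2 and FSD3, the plastid nucleoid forms, had log2 fold changes of 0.60 and 0.31 and were not called, nor were MSD1 of mitochondria (0.43), CSD3 of peroxisomes (0.52) and the copper transporters COPT1 (0.51) and COPT2 (0.95), although COPT2 was called without replicate 1 (1.15). SPL7 had 124, 211, 209.7 and 211 normalized counts, against 219.9, 184, 227 and 219, a log2 fold change of -0.20 with an adjusted p = 0.32.

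Most genes of iron storage rose in the fit of all 32 samples, and 4 genes of the iron-deficiency response fell. Ferritins are plastid shells that hold iron, and free iron induces them, whereas the FEP (IMA) peptides and their partners rise when iron is short. Of 12 storage and transport genes measured 8 rose and 1 fell (background 5.41% higher and 6.43% lower), with a median log2 fold change of 1.14. Without replicate 1 the count was 7 and none, and in a fit of the 8 leaves alone 5 and none. In that fit NEET, NAS3, FRO6 and YSL3 lost their calls (adjusted p = 0.0523, 0.0517, 0.136 and 0.0585). FER1, FER3, FER4, NEET, VTL1, VTL2, FRO6 and FRO7 are also on the study's iron list. That list was chosen on these samples, so the count is no independent evidence. FER1, the main leaf ferritin, had 43738, 34358, 39880.4 and 30292 normalized counts in 0 ppm CO2 PSI-PI leaves and 1771, 3947, 5215 and 783 in 400 ppm CO2 GL leaves. FER1 thus rose by 3.99 ± 0.54 (SE) on the log2 scale (adjusted p = 2.70e-06), with treated leaves close to each other and control leaves spread over a wider range.

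FER3 had 2712, 1900.1, 2465 and 1968 normalized counts, against 338, 466, 650.3 and 231, and FER4 1619.8, 1309, 1336 and 1294, against 566, 797, 818 and 311. Their log2 fold changes were 2.51 ± 0.43 (SE) and 1.25 ± 0.28 (SE). All treated leaves were above all control leaves for these 3 ferritins, as in 16.7% of all genes. FER2, the seed form, stayed under 4 normalized counts in each of the 8 leaves and was not called. In the control group replicate 4 had the lowest level of FER1, FER3 and FER4. NEET, a chloroplast iron-sulfur protein, NAS3, which makes the iron chelator nicotianamine, and VTL1, a vacuolar iron transporter-like protein, rose by 1.00, 1.65 and 1.21, and NEET lost its call without replicate 1 of the treated leaves (0.79). Without control replicate 4 FER4 (0.95) and VTL1 (0.90) came under the 2-fold limit, and NAS3 had 1.16 (adjusted p = 0.075) and NEET 0.88.

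The window upstream of FER3 is shown because the gene rose in every treated leaf and holds 2 short motifs there. The sequence is the 300 bases before the annotated gene start in the RefSeq annotation of TAIR10.1, at chr3:20816036-20816335 on the minus strand and written 5′ to 3′. Capitals mark CACGCG and the G-box CACGTG.
FER3: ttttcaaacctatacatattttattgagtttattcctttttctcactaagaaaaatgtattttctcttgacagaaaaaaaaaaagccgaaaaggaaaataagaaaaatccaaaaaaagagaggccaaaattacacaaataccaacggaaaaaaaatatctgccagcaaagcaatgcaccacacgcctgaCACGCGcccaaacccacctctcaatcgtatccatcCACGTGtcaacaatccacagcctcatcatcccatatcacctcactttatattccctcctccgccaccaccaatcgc
CACGCG lies 111 bases before the start of FER3 and CACGTG 76 bases before it. CACGCG, searched on both strands, was picked after sequences had been read, and it occurs in 3.23% of all 21284 windows of this length. The palindromic G-box occurs in 7.9% of all windows.

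The iron-dependent regulatory sequence of ferritin (IDRS), searched by its consensus on both strands, occurs in none of the 21284 windows. It is present in the annotated first exon of FER1, 268 bases after the annotated start and 177 bases before the translation start, at chr5:229763-229792 on the minus strand, where capitals mark it.
FER1: ggatgtagCACGAGGCCGCCACacgcccct
A match of letters is a description and shows no binding in these leaves.

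FRO6 and FRO7, iron reductases of the leaf cell and the chloroplast, rose on the whole, but replicate 1 differed from the rest. FRO7 had 3505, 6849.6, 8171 and 10554 normalized counts in 0 ppm CO2 PSI-PI leaves and 2011, 2433, 3138 and 3131 in 400 ppm CO2 GL leaves. FRO6 had 2910.0, 9301, 13494 and 17529, against 3917, 3947, 4658 and 4563, so that replicate 1 lay below all control leaves while the other 3 lay well above them. Its log2 fold change was 1.07 ± 0.40 (SE) with all leaves and 1.61 without replicate 1, and leaving out any other of the 8 leaves ended the call, with adjusted p-values of up to 0.151. The 2 genes are neighbours with similar sequences, and reads may be divided between them. The heme-binding proteins cHBP1, cHBP2 and cHBP3 rose by 1.36, 1.28 and 1.40 with no overlap between the groups, as in 16.7% of all genes. YSL3, a transporter of iron-nicotianamine, fell by 1.17 on the log2 scale and lost its call without replicate 1 (-0.79, adjusted p = 0.056), and YSL1 (0.48) and VTL2 (0.83) were not called.

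Of 20 iron-deficiency genes measured 4 fell and 1 rose (background 6.43% lower and 5.41% higher), with a median log2 fold change of -0.86. Without replicate 1 of the treated leaves 3 fell and 1 rose. FEP1, FIT, bHLH101 and AT1G47395 are also on the study's iron list. FEP1 (AT2G30766, IMA3), a phloem peptide that signals iron shortage, had 1.45, 2.04, 11.9 and 11.6 normalized counts in 0 ppm CO2 PSI-PI leaves and 105, 60.2, 139 and 629 in 400 ppm CO2 GL leaves (log2 fold change -4.71 ± 0.65 (SE), adjusted p = 2.92e-06). AT5G05250 had 0, 1.03, 2.57 and 7.21, against 168, 71.6, 94.3 and 584 (log2 fold change -5.86 ± 0.70 (SE)). OPT3, which loads iron into the phloem, had 426, 669, 684 and 769, against 1827, 1293, 1434 and 3119.9 (log2 fold change -1.53 ± 0.24 (SE)). In these 3 genes control replicate 4, the one with the least ferritin transcript, had the highest level of all leaves. The groups did not overlap in them, as in 16.3% of all genes in this direction. The naming rule required this of the largest falls among them.

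AT1G74770 and AT1G18910 fell by 2.43 and 1.02 on the log2 scale, and the call of AT1G18910 was lost without replicate 1 (-0.84) and without control replicate 4 (-0.98). AT3G56360 of the study's iron list fell by 2.59 on that scale. MYB72, a factor of the iron-deficiency response of roots, rose against the rest by 1.25 ± 0.41 (SE) at a low level of 13.8, 8.27, 15.5 and 10.3 normalized counts, against 9.39, 1.84, 3.67 and 4.77, with overlapping groups, and lost its call without control replicate 2 (0.95, adjusted p = 0.0821). FIT, a master regulator of iron uptake in roots, had a log2 fold change of -0.88 and missed the 2-fold limit (-1.05 without control replicate 3), and PYE, BTS, ZIF1 and ORG1 were not called at 0.07, -0.85, -0.46 and -0.59. FRO2, FRO3, NAS4, MYB10 and bHLH101 were not called either, with log2 fold changes between -0.59 and 0.65. BTS was called lower without treated replicate 4 (-1.03). The factors bHLH38, bHLH39 and bHLH100 and the peptide genes AT1G47400 and AT1G47395 were listed at 0 in all 4 treated leaves and in control replicates 1 and 2. In control replicates 3 and 4 they had between 2.76 and 14.8 normalized counts. IRP3 was listed at 0 in all treated leaves too, against 0.944, 2.77, 5.53 and 42.2 in the controls, and its call was lost without treated replicate 1 (adjusted p = 0.053) and without control replicates 3 or 4 (0.0519 and 0.155).

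Several light-signalling genes rose. HY5 and HYH, bZIP factors that act downstream of photoreceptors, increased in each treated leaf. HY5 had 791, 492, 261 and 310.1 normalized counts in 0 ppm CO2 PSI-PI leaves and 56.1, 68.3, 76.5 and 75.9 in 400 ppm CO2 GL leaves (log2 fold change 2.60 ± 0.29 (SE), adjusted p = 1.33e-07). HYH had 333, 349.8, 324 and 308, against 43.4, 49.9, 71.1 and 93.9 (log2 fold change 2.39 ± 0.31 (SE)). SIG5, a sigma factor through which the nucleus controls transcription in the chloroplast, had 1250.4, 2187, 1478 and 1876, against 266, 328, 479.7 and 401 (log2 fold change 2.20 ± 0.35 (SE)). Groups did not overlap in any of these, as in 16.7% of all genes in this direction.

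COL2, a CONSTANS-like factor, rose by 2.50 ± 0.28 (SE) and the F-box gene AFR of phytochrome A signalling by 1.61 ± 0.30 (SE). BBX25 and RUP1, which act with HY5 and in UV-B signalling, rose by 1.23 and 1.45. PIL1, a marker of shade, fell to 11.1, 8.98, 4.16 and 10.1 normalized counts, against 30.0, 53.8, 32.5 and 41.5 in 400 ppm CO2 GL leaves (log2 fold change -2.11 ± 0.39 (SE)). Of 19 genes of light signalling and shade 5 rose and 1 fell (background 5.41% higher and 6.43% lower). Of the study's own list of 12, which was chosen on these samples, 6 rose and 2 fell. HY5 and PIL1 are on both lists. Of 15 clock genes RVE4 and RVE8 rose, by 1.05 and 1.30 (RVE4 0.94 without treated replicate 4 and 0.98 without control replicate 1), and CCA1 and TOC1 were not called (0.68 and 0.31).

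Genes of the antenna of photosystem II fell as a group. Of 15 LHCII genes 8 were called lower and 2 higher (background 6.43% lower and 5.41% higher), and the median log2 fold change was -1.17. Without replicate 1 of the treated leaves 9 were called lower and 2 higher. In 12 of the 15 every treated leaf was below every control leaf, against 16.3% of all genes, and in the other direction this held for 2 members, against 16.7% of all genes. LHCB2.3 had the lowest fold change of the 15, with 1587, 1365, 929.5 and 3997 normalized counts in 0 ppm CO2 PSI-PI leaves and 11323, 9582, 12354 and 10606 in 400 ppm CO2 GL leaves (log2 fold change -2.70 ± 0.55 (SE)). LHCB3, which forms the moderately bound trimers, had 30741, 21380.5, 20008 and 36441, against 86199.6, 84619, 81394 and 84688 (log2 fold change -1.68 ± 0.29 (SE), adjusted p = 6.81e-05). The 4 treated leaves held between 540832 and 859584 normalized counts of all LHCII genes together, and the 4 control leaves between 1276130 and 1536600.

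The near-identical LHCB1 and LHCB2 copies share reads, and single members of these families are uncertain. LHCB7 and LHCB4.3, a rare member and one linked to strong light, rose instead. LHCB7 had 596, 528, 442 and 636 normalized counts, against 169, 199, 224 and 215 (log2 fold change 1.44 ± 0.18 (SE)), and LHCB4.3 1403, 1471, 1085 and 1578, against 621, 611, 659 and 806 (log2 fold change 1.03 ± 0.29 (SE)). LHCB4.3 came just under the 2-fold limit without treated replicates 2 or 4 or control replicates 1 or 2 (0.96 to 1.00). In chlorophyll synthesis 4 of 16 genes fell and none rose, against 6.43% of all genes called lower, and 3 fell without treated replicate 1. GUN4, which activates the magnesium chelatase, had 850.4, 825, 1029.8 and 930.3 normalized counts, against 3819, 2837, 3733 and 3086 (log2 fold change -1.88 ± 0.24 (SE)). PORA and PORB, which reduce protochlorophyllide in light, fell by 2.67 and 1.36 on the log2 scale, and CRD1 by 1.02, a call that was lost without treated replicates 1 or 3 or control replicates 3 or 4 (-0.88 to -0.98).

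Few genes of the core of the photosynthetic machinery were called. None of 10 photosystem II subunits, 6 LHCI antenna genes, 4 genes of cytochrome b6f and plastocyanin and 4 of the ATP synthase was called, at a background of 11.8% of all genes. Of 12 PSI subunits PSAF and PSAG, which face the lumen and the antenna, fell by 1.18 and 1.11 on the log2 scale. PSAF had 27917, 38662, 33578 and 57439 normalized counts in 0 ppm CO2 PSI-PI leaves and 95464, 82604, 85877 and 80495 in 400 ppm CO2 GL leaves, without overlap. The call of PSAG was lost without replicate 1 (-0.99). A further 6 PSI genes had an adjusted p under 0.05 and were lower by less than 2-fold, among them PSAD2 (-0.98) and PSAD1 (-0.79). PSAD2 was called lower without treated replicate 4 (-1.13) or control replicate 4 (-1.03).

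Of 29 genes of cyclic electron flow and ferredoxin only NdhM, a subunit of the NDH complex, was called, with 7044, 5673, 5686 and 6222 normalized counts, against 1939.7, 2601, 2356 and 2449 (log2 fold change 1.40 ± 0.13 (SE), adjusted p = 1.10e-08). This is 1 gene, against 5.41% of all genes called higher. A further 13 had an adjusted p under 0.05 and were higher by less than 2-fold, among them PGR5 (0.95), PGRL1B (0.82), PGRL2 (0.93) and NdhT (0.96). The median of the list was 0.37. PGR5 was called without treated replicates 2 (1.02) or 3 (1.06). NdhT was called without treated replicates 2 (1.05) or 3 (1.02) or control replicate 3 (1.04). PGR5 and its PGRL partners carry the antimycin-sensitive route, which protects PSI.

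In the CBB cycle 1 of 20 genes was called, against 11.8% of all genes. This was CP12-2, whose protein binds and silences cycle enzymes in the dark. It had 31723, 28148, 26629.9 and 30236 normalized counts in 0 ppm CO2 PSI-PI leaves and 10923, 12374, 11369 and 12388 in 400 ppm CO2 GL leaves (log2 fold change 1.31 ± 0.12 (SE), adjusted p = 4.24e-09). A further 4 genes of the cycle were higher and 1 lower by less than 2-fold at an adjusted p under 0.05. Of 25 photorespiratory genes 2 rose and 2 fell, shares near the 5.41% and 6.43% of all genes. A further 7 of the 25 were higher and 1 lower by less than 2-fold at an adjusted p under 0.05. CAT2, which encodes a catalase, was one of the 2 that rose, with overlap between the groups. SGAT, the peroxisomal serine:glyoxylate aminotransferase, had 64899, 62096, 68484 and 76058, against 27237, 29466, 31983 and 29879 (log2 fold change 1.19 ± 0.15 (SE)). DiT1 and DiT2.1, which exchange organic acids across the chloroplast envelope and recycle photorespiratory ammonia, had log2 fold changes of -1.81 ± 0.34 (SE) and -1.58 ± 0.29 (SE). DiT1 had 868, 1750.0, 1732 and 2800.5 normalized counts, against 4138, 4946, 6694 and 8125, with replicate 1 the lowest of all.

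Carbon starvation markers that were called all rose. Of 20 measured 8 rose and none fell (background 5.41% higher and 6.43% lower), with a median log2 fold change of 0.96. Without replicate 1 the count was 11 at a median of 1.19. PRODH1, which breaks down proline, had 1749, 1446, 1529.6 and 815 normalized counts in 0 ppm CO2 PSI-PI leaves and 584, 263, 217 and 144 in 400 ppm CO2 GL leaves (log2 fold change 2.33 ± 0.39 (SE)). DRM1 and DRM2, dormancy-associated genes that sugar represses, rose by 2.17 ± 0.42 (SE) and 2.08 ± 0.37 (SE). DRM2 had 25409, 24666, 22794 and 29808 normalized counts, against 11506, 7187, 4365 and 3687. In both DRM genes the controls ranged widely, with replicate 1 highest, and the treated leaves lay close together above them. DIN9, a dark-inducible gene, and TPS9, a trehalose-phosphate synthase-like gene, rose by 1.80 and 1.32.

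Of 17 genes of starch synthesis none was called, at a background of 5.41% of all genes called higher and 6.43% lower. In starch breakdown 2 of 18 rose, the beta-amylases BAM3 (1.25) and BAM6 (1.17, and 0.96 without control replicate 1), BAM3 with 64333, 34349, 30848 and 34784 normalized counts, against 15235, 17187, 17924 and 15611. Of 16 genes of sucrose synthesis 1 was called higher, a share near the background. This was FBA5, a cytosolic aldolase, which rose by 1.46 ± 0.22 (SE). FBA5 had 44975, 57797, 49452 and 81820.0 normalized counts, against 17066, 20189.6, 22023 and 24495.

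Phosphate-starvation genes rose in part. Of 15 measured 6 rose and 1 fell, with and without replicate 1 (background with all leaves 5.41% higher and 6.43% lower). PS2, a phosphatase strongly induced by lack of phosphate, had 157, 81.3, 67.8 and 77.3 normalized counts in 0 ppm CO2 PSI-PI leaves and 6.56, 6.42, 4.58 and 0.952 in 400 ppm CO2 GL leaves (log2 fold change 4.20 ± 0.44 (SE), adjusted p = 5.52e-08). SPX1, which senses inositol pyrophosphates and restrains the factor PHR1, had 1115, 788, 722 and 594, against 205, 202, 223 and 213 (log2 fold change 1.89 ± 0.15 (SE), adjusted p = 9.68e-10). SPX3 had 19.5, 8.25, 5.17 and 11.3, against 0, 1.83, 0.913 and 0.952. The phosphate transporter PHT1;4 rose by 1.49 ± 0.30 (SE). PPCK1, a kinase of phosphoenolpyruvate carboxylase, fell by 1.44 on the log2 scale.

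PHR1 binds the P1BS element, written here as GNATATNC and searched on both strands of the 300 bases before the annotated starts. The windows of PS2 (chr1:27466349-27466648, minus strand) and SPX3 (chr2:18606110-18606409, plus strand), again from RefSeq on TAIR10.1, are shown because both rose and hold it, in capitals.
PS2: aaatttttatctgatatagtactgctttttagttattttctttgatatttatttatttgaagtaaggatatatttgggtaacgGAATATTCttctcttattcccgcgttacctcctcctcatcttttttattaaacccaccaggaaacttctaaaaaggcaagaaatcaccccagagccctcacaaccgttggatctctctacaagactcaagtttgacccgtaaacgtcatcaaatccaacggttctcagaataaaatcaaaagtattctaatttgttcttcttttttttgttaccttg
SPX3: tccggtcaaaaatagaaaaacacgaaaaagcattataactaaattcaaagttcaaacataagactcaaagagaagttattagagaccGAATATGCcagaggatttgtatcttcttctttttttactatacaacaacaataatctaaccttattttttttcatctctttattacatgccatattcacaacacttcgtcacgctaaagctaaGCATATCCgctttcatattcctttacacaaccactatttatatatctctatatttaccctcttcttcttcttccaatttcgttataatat
In PS2 the match GAATATTC lies 217 bases before the start. In SPX3 GAATATGC and GCATATCC lie 213 and 90 bases before it. The element was found in 3 of the 6 phosphate genes that rose, in 6 of all 15 measured and in 6.55% of the 21284 windows.

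Expansin and early auxin-response genes were called only in the downward direction. Of 10 alpha-expansins, which loosen walls as cells expand, 4 fell and none rose, against 6.43% of all genes called lower. Their median log2 fold change was -1.58, and 6 fell without replicate 1 of the treated leaves. EXPA6 had 406, 198, 223 and 290.4 normalized counts in 0 ppm CO2 PSI-PI leaves and 1057, 1035, 1027 and 1144 in 400 ppm CO2 GL leaves (log2 fold change -1.98 ± 0.28 (SE)). Of 12 early auxin-response genes 5 fell and none rose, and 6 fell without that leaf. IAA19, a repressor that auxin induces quickly, had 58.7, 112, 42.3 and 102, against 349.6, 323, 347 and 381 (log2 fold change -2.24 ± 0.44 (SE)), and GH3.3, which conjugates auxin to amino acids, 104, 54.3, 53.8 and 26.7, against 296, 348, 362 and 395 (log2 fold change -2.68 ± 0.42 (SE)). In EXPA5 replicate 1 had 972, 255, 141 and 204 normalized counts with the other treated leaves far below it, against 994, 1014, 1061 and 1162, so that the fall was larger without it (-2.43, against -1.85).

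Among stress genes the direction depended on the group. HSFA2, a heat stress factor that also responds to hydrogen peroxide, fell to 11.0, 19.9, 33.1 and 24.6 normalized counts, against 136, 149, 143 and 147 in 400 ppm CO2 GL leaves (log2 fold change -2.74 ± 0.48 (SE), adjusted p = 7.39e-05). HSP101 and HSP70-4, chaperones of the heat response, fell by 1.55 and 1.81 on the log2 scale, as 4 of 13 heat shock genes did in all. Of 40 H2O2-responsive genes 10 rose and 4 fell (background 5.41% higher and 6.43% lower), and 9 rose and 4 fell without replicate 1. BT5 and BT3, BTB and TAZ domain proteins, rose by 3.21 ± 0.40 (SE) and 1.71 ± 0.18 (SE), and HPCA1, a kinase that senses H2O2 at the cell surface, fell by 1.42 on the log2 scale.

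Of 49 singlet-oxygen-responsive genes 2 rose and 11 fell (background 5.41% higher and 6.43% lower), and 2 rose and 8 fell without replicate 1. ABI1, a phosphatase that curbs abscisic acid signalling, rose by 1.38 ± 0.14 (SE) with 4441, 2543, 2680.0 and 2481 normalized counts, against 1029, 1145, 1198 and 1155. PME41, a pectin methylesterase, had 45.8, 62.6, 76.0 and 38.1 normalized counts, against 783, 419, 418 and 431, and fell by 3.18 on the log2 scale, UCP5, a mitochondrial carrier, by 1.25, and LYK5, a chitin receptor kinase, by 1.88. Of 17 genes of the abscisic acid response 3 rose, ABI1, RD26 (1.97) and COR47 (1.04, lost without treated or control replicate 1 at 0.82 and 0.94). Of 19 rapid stress factors 7 rose and none fell, and 5 rose without replicate 1. ZAT6 rose by 1.43 and DREB1B by 1.08 either way, and DREB1B had 0.95 without treated replicate 4. None of 20 glucosinolate genes was called, and without replicate 1 MYB51, a factor that controls indole glucosinolates, was called higher (1.28, against 0.80). Of 15 tau-class glutathione transferases GSTU1 and GSTU3 rose, but their calls were lost without replicate 1 and without 3 other single leaves each, and without replicate 1 GSTU9 was called instead (1.55, against 0.89).

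**Figure D4:**
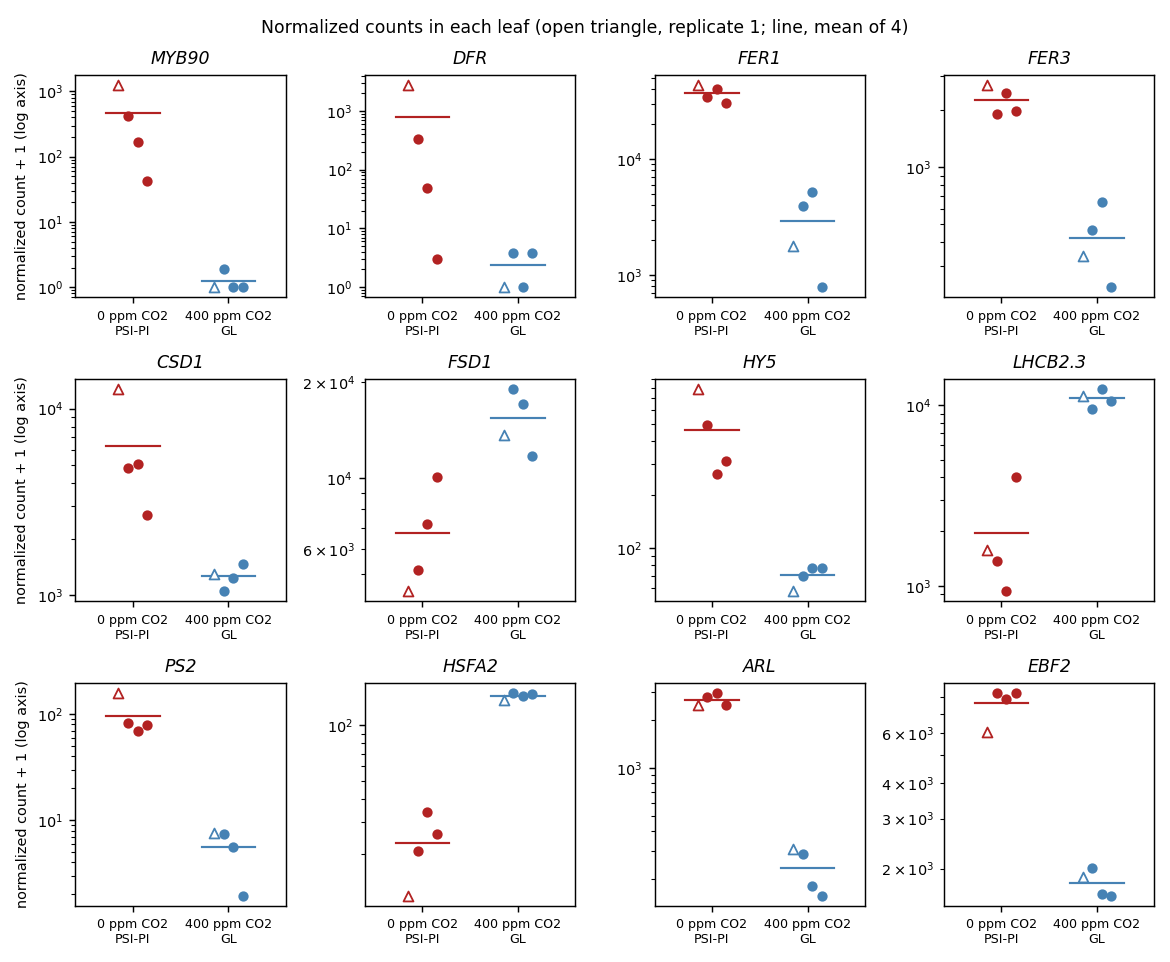
Normalized counts plus 1 of 12 genes in each leaf on a log axis, 0 ppm CO2 PSI-PI left of 400 ppm CO2 GL, with replicate 1 of each group as an open triangle and the mean of 4 as a line. In EBF2 the treated leaves had 6057, 8253, 7864 and 8280.5 normalized counts, all above the controls, and in DFR replicate 4 had 2.06, within the controls.

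The next question was how both treatments together compare with each alone. All 3 comparisons used the same 4 leaves of 400 ppm CO2 GL and are therefore not independent, so their values are set side by side without a measure of likeness. In 0 ppm CO2 GL leaves 963 genes (4.49%) were higher and 1219 (5.68%) lower than in 400 ppm CO2 GL leaves, and in 400 ppm CO2 PSI-PI leaves 705 (3.28%) were higher and 625 (2.91%) lower. In the superoxide dismutase group CSD1 changed by 2.1 under both treatments, 1.97 without CO2 alone and -0.26 under PSI-PI alone on the log2 scale, and FSD1 by -1.25, -2.04 and 0.44. PS2 changed by 4.20, 4.28 and -0.61 and AT3G52310 by 3.86, 3.73 and -0.49 in that order. These genes were called in 0 ppm CO2 GL leaves and not in 400 ppm CO2 PSI-PI leaves.

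The opposite order of size was seen in the ferritins and the light-signalling genes. FER3 changed by 2.51 under both treatments, -0.28 without CO2 alone and 2.38 under PSI-PI alone, and FER4 by 1.25, -0.16 and 1.24. HY5 had 2.60, 0.72 and 2.48, HYH 2.39, 0.70 and 2.26, and PIL1 -2.11, -0.05 and -2.37. None of these was called in 0 ppm CO2 GL leaves. FER1 was called in all 3, with 3.99, 1.72 and 2.71, as was WRKY38 with -5.20, -2.31 and -3.20.

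The gene lists are set side by side in the same way, each with its calls under both treatments, without CO2 alone and under PSI-PI alone. Over all genes 5.41%, 4.49% and 3.28% were called higher and 6.43%, 5.68% and 2.91% lower in that order. The overlap with the study's own lists holds here too. Of the 12 iron storage genes 8, 2 and 7 rose, and of the 20 iron-deficiency genes 4, none and 3 fell. Of the 19 flavonoid enzymes 8, 8 and 2 rose, of the 13 JAZ genes 4, 5 and none, and of the 19 rapid stress factors 7, 9 and none. Of the 15 phosphate-starvation genes 6, 5 and 1 rose. Of the 15 LHCII genes 8, 10 and 6 fell, of the 16 genes of chlorophyll synthesis 4, 9 and 3, and of the 10 alpha-expansins 4, 7 and none. In photorespiration 2, none and 8 of 25 genes rose, and in cyclic electron flow and ferredoxin 1, none and 6 of 29.

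**Figure D5:**
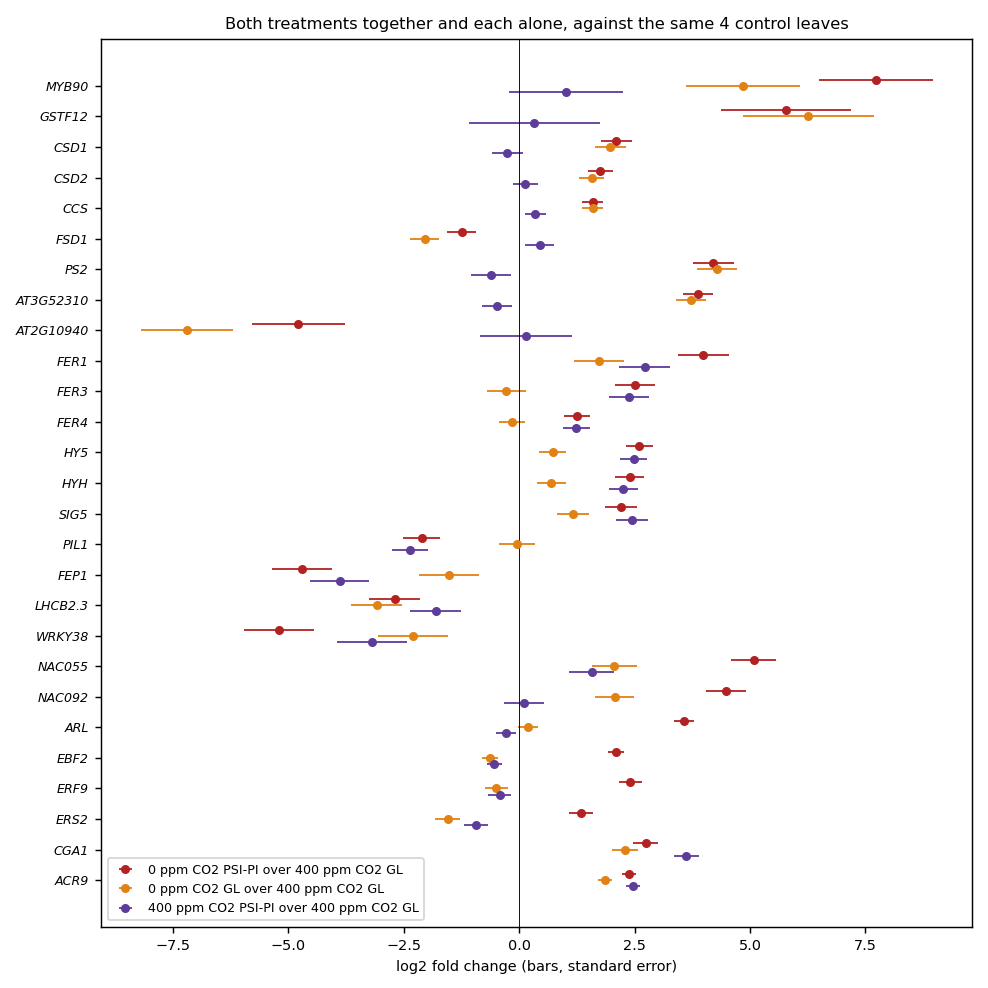
Log2 fold changes with SE of 27 genes in 0 ppm CO2 PSI-PI, 0 ppm CO2 GL and 400 ppm CO2 PSI-PI leaves, each over the same 4 leaves of 400 ppm CO2 GL. EBF2, ARL, ERF9 and ERS2 lie right of 0 under both treatments together and near or left of 0 under each alone.

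Whether the combined change differed from the sum of both single changes was tested as a contrast of 4 groups on the log2 scale. The combined change was above the sum for 235 genes (1.09%) and below it for 408 (1.9%) at an adjusted p under 0.05, and without replicate 1 of 0 ppm CO2 PSI-PI for 248 (1.16%) and 459 (2.14%). The count of 643 in both directions rested on single leaves more than the other counts did. It was 339 without replicate 3 of 0 ppm CO2 GL, 403 without replicate 3 of 400 ppm CO2 PSI-PI, and 413 and 414 without replicates 3 and 4 of 400 ppm CO2 GL. It was 991 without replicate 1 of 0 ppm CO2 GL, 990 without replicate 4 of 0 ppm CO2 PSI-PI, and 304 in a fit of the 16 leaves of the 4 groups. The largest movers named above included 6 such genes, AT5G42825 (-3.58), NAC6 (2.31), AT2G22880 (4.06), ARL, MKK7 (4.49) and EXPB1 (2.62). Of these, ARL and MKK7 were off the sum in all 25 other settings, and AT5G42825 in all but the fit of the 16 leaves (adjusted p = 0.0593). When single leaves were left out, AT2G22880 was lost for 12 of the 16 leaves (adjusted p up to 0.103), EXPB1 for 9 (0.0953) and NAC6 for 8 (0.0787).

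In the contrast against the sum, the smallest adjusted p among genes also called in the combined comparison belonged to EBF2, an F-box protein that removes the ethylene factor EIN3. EBF2 had 6057, 8253, 7864 and 8280.5 normalized counts in 0 ppm CO2 PSI-PI leaves and 1870.0, 2004, 1622 and 1607 in 400 ppm CO2 GL leaves, a log2 fold change of 2.1 ± 0.17 (SE). It had 1484, 716, 1184 and 1327 in 0 ppm CO2 GL leaves and 1304, 1162, 1302 and 1096 in 400 ppm CO2 PSI-PI leaves, log2 fold changes of -0.64 and -0.54. The combined change exceeded the sum by 3.27 (adjusted p = 8.05e-10).

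ARL, introduced above, had 267, 158, 296 and 333 normalized counts in 0 ppm CO2 GL leaves and 194, 223, 166 and 151 in 400 ppm CO2 PSI-PI leaves, log2 fold changes of 0.19 and -0.30, and exceeded the sum by 3.68 (adjusted p = 1.88e-08). ERF9, an ethylene response factor, had 418, 540.5, 468 and 521 under both treatments, against 77.0, 106, 85.2 and 96.3 in 400 ppm CO2 GL leaves. Its log2 fold changes were 2.41 under both, -0.49 without CO2 and -0.42 under PSI-PI, a difference of 3.33 from the sum. The receptor gene ERS2 had 1.34, -1.55 and -0.94, and was called lower in 0 ppm CO2 GL leaves and higher under both treatments, 3.83 above the sum (adjusted p = 2.56e-07). TBL27, of a family of wall polysaccharide acetyltransferases, had 1.34, -0.08 and -0.20. AT5G57760 exceeded the sum by 8.24, since it fell by 4.91 on the log2 scale in 0 ppm CO2 GL leaves, but its rise under both treatments (1.74, adjusted p = 0.048) lost its call without replicate 1 (1.42, adjusted p = 0.15) and, at adjusted p-values of 0.0662 to 0.112, without treated replicates 2 or 4 or control replicates 2, 3 or 4.

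Other genes rose about as much under both treatments as under either, and so fell short of the sum. CGA1 (GNL), a GATA factor that promotes chlorophyll and chloroplast formation, had 277, 601, 682 and 678 normalized counts under both treatments, against 81.5, 67.0, 80.6 and 85.5 in 400 ppm CO2 GL leaves. Its log2 fold changes were 2.73 under both, 2.29 without CO2 and 3.62 under PSI-PI, with a difference of -3.17 from the sum (adjusted p = 1.14e-05). ACR9, a protein with ACT domains, had 2.38, 1.86 and 2.46 (-1.94 from the sum), AT2G04795 1.98, 1.84 and 2.00 (-1.86), and bZIP2 1.18, 1.19 and 1.27 (-1.28). Of the 15 LHCII genes 4 were above the sum and none below, against 1.09% and 1.9% of all genes. Among the 4 was LHCB3, which fell by 1.68 on the log2 scale under both treatments. It fell by 2.11 without CO2 alone and 1.24 under PSI-PI alone (1.67 above the sum, adjusted p = 0.024). That call was lost in a fit of the 16 leaves of the 4 groups (adjusted p = 0.093) and without replicates 2 or 3 of 0 ppm CO2 GL or of 400 ppm CO2 PSI-PI (0.0508 to 0.0717).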

How the data were processed

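Whole leaves were harvested as 4 biological replicates per group, with 32 samples in 8 groups. The deposited values are normalized counts per gene, a depth-scaled signal and not raw counts. Per the labels and the study's methods, the authors estimated transcript counts with Salmon 0.12 on the TAIR10 cDNA, summed them per gene and scaled them with DESeq2. Of all values, 95% are not whole numbers, so a count model could not be used. Sample totals were 18494378 to 31211055, and no value carries a counting interval because raw depth is not given in the sources used here.

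For each gene the log2 of the value plus 1 was fitted with limma 3.58.1 in R 4.3.3 (1 mean per group, all 32 samples, 24 residual degrees of freedom, moderated variance with a trend, Benjamini-Hochberg adjustment over all genes). Genes with a sum under 10 over all samples were left out (56 of 21525). Every adjusted p in the text is from this tool. The change under both treatments minus the sum of the changes under each alone was tested as a contrast in the same fit, at an adjusted p under 0.05 and with no minimum fold change. The fitting code was tested on simulated data. No 2 samples held identical values.

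Named genes were the 15 largest rises and the 15 largest falls among genes called also in a fit of the 8 samples alone, with a mean of at least 50 in the higher group and no overlap between groups. Added to these were up to 6 members of each list with the smallest adjusted p and members called against the majority, up to 10 called genes with the smallest adjusted p against the sum, and every member of the superoxide dismutase, iron and anthocyanin regulator lists. The text gives values for most of these. The comparison, the lists and the rule were chosen with earlier results of these data known. Of the 38 lists, with 708 different genes of which 17 were not measured, several came from the study, and its flavonoid, iron and light lists were chosen on these samples. The other lists of flavonoid, iron and light-signalling genes share members with those. Upstream windows were read from RefSeq on TAIR10.1, whose gene table held 21285 of the identifiers, and drawn for 21284. Alternatives were another sample set, a replicate block, other filters, pseudocounts of 0.5 and 5, quantile normalization, no variance trend, 1 weight per group, other thresholds, and leaving out each leaf. The fit without replicate 1 of 0 ppm CO2 PSI-PI, one of these, is given beside many of the results but not all.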

Additional observations from a re-analysis of the deposited data

Results flagged for a closer look

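For 36 of the 187 genes with values in the text the change under both treatments differed from the sum of the changes under each alone (contrast of the 4 groups in limma, adjusted p under 0.05). On the log2 scale the combined change minus the sum was positive for AT5G57760 (8.24), ARGOS (4.53), MKK7 (4.49), AT2G22880 (4.06), ERS2 (3.83), ARL (3.68), ETR2 (3.68), ERF9 (3.33) and EBF2 (3.27). It was also positive for ERF1 (2.65), EXPB1 (2.62), NAC6 (2.31), ERS1 (1.98), LHCB3 (1.67), TBL27 (1.62), UCP5 (1.48), PORB (1.27), ABI1 (1.06) and CTR1 (0.98). It was negative for AT5G42825 (-3.58), CGA1 (-3.17), BT5 (-2.54), ACR9 (-1.94), AT2G04795 (-1.86), EXL4 (-1.72), TPS9 (-1.40), bZIP2 (-1.28) and FRO7 (-1.27). The other negative values were those of BAM3 (-1.17), BT3 (-1.03), RVE4 (-0.96), cHBP3 (-0.95), SGAT (-0.86), NdhM (-0.75), COPT1 (-0.72) and CP12-2 (-0.67). In 25 other settings, 16 of which left out a leaf, 21 of the 36 were off the sum each time. The other 15 missed the threshold in at least 1 setting, 13 of them when some leaf was left out. The number of leaves whose omission ended the call was 12 for AT2G22880, 9 each for EXL4, EXPB1 and FRO7, 8 for NAC6, 6 for cHBP3, 5 each for BAM3, BT3 and SGAT, 4 each for LHCB3, NdhM and TPS9 and 1 for CP12-2, at adjusted p-values of up to 0.105. AT5G42825 and CTR1 missed it in the fit of the 16 leaves alone (0.0593 and 0.0906).

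In 24 of 368 groups of 4 leaves the highest or the lowest leaf lay far from the other 3 on the log2 scale, so that its gap to the next leaf, as a share of the whole range, exceeded the critical value of Dixon's test for 4 values. About 1 in 20 groups would be singled out by chance. In 0 ppm CO2 PSI-PI this was replicate 1 in 11 of 14 genes. It was the highest leaf of JAZ9 (0.985), FER4 (0.858), MSD1 (0.831), BAM3 (0.837) and ABI1 (0.868) and the lowest of MKK7 (0.906), COL2 (0.880), RVE8 (0.919), CGA1 (0.859), SPL7 (0.986) and EBF2 (0.835), where the value is that share of the range. Replicate 3 was the lowest of FER2 (0.871) and replicate 4 the highest of AT3G23450 (0.840) and AT3G57700 (1.000). In 400 ppm CO2 GL replicates 1, 2 and 4 were concerned in 3 genes each and replicate 3 in 1. The highest control leaf stood off in MYB90 (1.000), AT2G22880 (1.000), PME41 (0.953), FSD2 (0.856) and HSP70-4 (0.842), and the lowest in VTL1 (0.934), MYB112 (0.844), AT2G10940 (0.830), cHBP2 (0.861) and SPL7 (0.833). A share of 1.000 means that the other 3 leaves had the same value. MYB90, AT3G57700 and FER2 had very low values in the groups concerned, so their shares rest on few counts.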

How the results depend on the processing

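The count of 2543 genes called under both treatments lay between 2124 and 2551 under the other settings that kept the 2-fold limit and the adjusted p, and between 2148 and 2894 when each leaf in turn was left out. Without a minimum fold change the counts were 8251 for both treatments, 7256 for 0 ppm CO2 alone and 5326 for PSI-PI alone, against 2182 and 1330 with it for the single treatments. Leaving out single leaves gave 1855 to 2621 genes for 0 ppm CO2 alone and 1090 to 1383 for PSI-PI alone. The 643 genes off the sum became 304 in a fit of the 16 leaves of the 4 groups, 333 with 1 weight per group and 3687 at an unadjusted p under 0.05. Without single leaves they were between 339 (0 ppm CO2 GL replicate 3) and 991 (0 ppm CO2 GL replicate 1), and the cause of these moves was not tested.

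Of the 187 genes with values in the text, 4 changed direction, and none of them was called in any setting. PYE had log2 fold changes of -0.01, -0.19 and -0.14 without treated replicate 1 and control replicates 2 and 3, against 0.07 with all leaves and up to 0.46 without control replicate 4. EIN3 lay between -0.0326 and 0.0314 when single leaves were left out, positive without treated replicates 1 or 3 or control replicates 1 or 2 (-0.0026 with all leaves). FRO3 lay between -0.798 and 0.0365, positive without treated replicate 1 alone (-0.517). The low bHLH101 had 0.0024 with a pseudocount of 0.5, 0.0554 with quantile normalization, and -0.791 to 0.62 when single leaves were left out (-0.115). With 1 weight per group 10 genes lost their call, in the fit of the 8 leaves 14, with a pseudocount of 5 there were 7 and with quantile normalization 5. Of 76 counts of list members called higher or lower, 27 moved by more than 1.5 times in some setting, most often (14) without replicate 1 of 0 ppm CO2 PSI-PI. The median log2 fold change of all genes stayed between -0.000784 and 0.00571 under all scalings, filters and pseudocounts run.

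Same-numbered leaves of 0 ppm CO2 PSI-PI and 400 ppm CO2 GL did not deviate together (correlations of deviations from the group means of -0.175, -0.126, -0.201 and 0.11), so the numbers do not pair the leaves. With the replicate block 2539 genes were called under both treatments, and no gene with values in the text lost its call in that comparison. The block gave 2199 genes for 0 ppm CO2 alone, 1338 for PSI-PI alone and 650 off the sum, and of the 36 genes off the sum in the text AT2G22880 was lost (adjusted p = 0.0535). Low normalized counts limit genes such as MYB72, SPX3 and PIL1, whose values rest on few reads, and values at 0 allow no ratio.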

Other observations

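Because EBF2, ERS2, ERF9 and ARL rose above the sum of both treatments, genes of ethylene perception and response were looked up after these values had been seen. Ethylene is sensed by a small family of receptors that hold the kinase CTR1 active, and several receptor and response genes are themselves induced by the hormone. Of 21 such genes, which include those 4, 11 were called higher and none lower in 0 ppm CO2 PSI-PI leaves, and 10 without replicate 1. Of the 17 genes that had not prompted the search 7 were called higher, against 5.41% of all genes, and 6 without replicate 1, against 4.53%. In 0 ppm CO2 GL leaves and in 400 ppm CO2 PSI-PI leaves none of the 21 rose and 2 fell in each. The combined change was above the sum for 10 of the 21, 6 of the 17, and 1.09% of all genes, and below it for none of the 21. These genes were chosen for what related genes did, and no test over them was run.

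The receptor ETR2 had 114, 294, 125 and 259 normalized counts in 0 ppm CO2 PSI-PI leaves, against 103, 68.8, 95.2 and 65.3 in 400 ppm CO2 GL leaves. It had 41.8, 15.7, 24.8 and 32.5 in 0 ppm CO2 GL leaves and 38.9, 29.7, 56.6 and 43.2 in 400 ppm CO2 PSI-PI leaves. Both single treatments lay below the control and both together above it. ERF1, a direct target of EIN3, had 70.2, 71.3, 61.3 and 40.3, against 13.2, 17.4, 19.2 and 13.4 in 400 ppm CO2 GL leaves (log2 fold change 1.86 ± 0.36 (SE), adjusted p = 1.96e-04). CTR1 rose by 1.10 ± 0.16 (SE) and ARGOS, a relative of ARL, by 1.67 ± 0.60 (SE), although ARGOS lost its call without treated replicates 1, 2 or 4 and without control replicates 2, 3 or 4 (adjusted p = 0.0505 to 0.104). CTR1 came under the 2-fold limit without treated replicate 2 (0.97) and ETR2 without treated replicates 2 (0.92) and 4 (0.98). EIN3, whose protein and not its transcript is regulated by ethylene, was not called, nor was EBF1 (0.43). The receptor ERS1 had a log2 fold change of 0.75 and an adjusted p = 2.60e-05, under the 2-fold limit.

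Of 13 genes of ethylene synthesis none was called higher with all leaves (background 5.41%), and ACS6 was called without replicate 1. Called lower were 3 (background 6.43%), ACS4, ACS8 and ACS11, which encode forms of the enzyme that makes the precursor. ACS4 had 4.58, 0, 3.42 and 1.03 normalized counts in 0 ppm CO2 PSI-PI leaves, against 65.5, 52.3, 80.6 and 125 in 400 ppm CO2 GL leaves, with a log2 fold change of -4.87 ± 0.65 (SE). ACS6, a stress-induced form, had 240.4, 402, 368 and 298, against 140.3, 200.0, 139 and 169.9, with no overlap and a log2 fold change of 1.00 just under the limit. It passed the limit without treated replicates 1 (1.13) or 4 (1.03) and without control replicates 2 (1.10) or 4 (1.02). The ethylene released by the leaves was not analysed here.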
